A study of Mus musculus with 12 samples.

Results

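The genes described here encode the protein folding machinery of the endoplasmic reticulum (ER), the cytosol and the mitochondria. They were a list of 35 named genes, grouped as 16 ER chaperones and folding enzymes, 8 genes of ER-associated degradation (ERAD) and ER stress sensing, and 11 cytosolic or mitochondrial heat shock genes. For each gene, the brightest probe set by its 12-array mean was used, out of those annotated to a single gene symbol. A probe set was found for 33 of the 35 members, out of 18193 genes represented in this way, while Hsp90ab1 and Hsf1 were not analysed here. All 8 ERAD and sensor genes and all 16 ER chaperones were measured, together with 9 of the 11 heat shock genes.

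RNA came from monolayer cultures of MC38, a colon carcinoma line of the mouse, and so from no host cells. The cells received the MEK inhibitor GDC-0623 at a final concentration of 100 nM, or the solvent DMSO at a matched concentration, and were harvested 24 h or 72 h later. The 4 groups were 24 h GDC-0623, 24 h DMSO, 72 h GDC-0623 and 72 h DMSO, each with 3 arrays that the labels describe as biological replicates. Values are log2 expression values from robust multichip averaging (RMA), which were compared with limma. A gene was called where the p-value, adjusted by Benjamini-Hochberg over 45037 probe sets, was under 0.05, and errors given with a log2 fold change are standard errors of that fit.

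Secretory and membrane proteins fold in the ER with the help of HSP70-type and HSP90-type chaperones, lectin chaperones that bind glycoproteins, and disulfide isomerases. Proteins that fail to fold are returned to the cytosol and degraded, and the sensors IRE1α, ATF6 and PERK start the unfolded protein response, which raises chaperone and ERAD transcripts through the factors XBP1 and cleaved ATF6. Cytosolic and mitochondrial chaperones are controlled largely by heat shock factors. MEK activates the kinase ERK, which drives growth and protein synthesis in many tumor cells.

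Array medians lay between 4.63 and 4.7, and values under about 5 are here called the background range. Of 5 genes listed as a check of ERK signalling, Egr1, Dusp6, Etv4 and Etv5 fell at both times, with log2 fold changes of -4.9, -2.12, -1.71 and -3.46 at 24 h and -5.57, -1.49, -1.26 and -2.81 at 72 h. Spry4, the fifth, had group means between 4.52 and 5.14, at the edge of the background range. Of the cell type markers, 6 of 7 leukocyte and 6 of 6 endothelial genes had every group mean under 5. This was also true of 7 of 10 epithelial and colon genes, so that most defining markers of the labelled tissue of origin were in the background range, whereas 8 of 9 fibroblast and mesenchymal genes reached 5 in at least 1 group. The mean level of the mesenchymal list was 9.11 to 9.22 in 24 h GDC-0623 arrays, against 8.51 to 8.67 in 24 h DMSO arrays. At 72 h it was 9.51 to 9.7 in GDC-0623 arrays, against 8.89 to 8.96 in DMSO arrays. Of the 9 mesenchymal genes, 4 were called higher at 24 h and 5 at 72 h by limma (44.4% and 55.6%, against 13.3% and 13.8% of all genes). The other 5 and 4 did not pass, and the median log2 fold change was 0.17 at 24 h and 0.91 at 72 h. The mean of this list therefore moved in the same direction as the ER chaperones described below, and its part in their changes was not tested. In bulk RNA, fewer cells of a type and less RNA per cell cannot be told apart. Hybridisation control spots had overlapping means in all 4 groups, between 10.12 and 10.43. These means were read from the RMA values themselves. At 24 h they ranged from 10.12 to 10.32 in GDC-0623 arrays and from 10.27 to 10.43 in DMSO arrays. Shifting the arrays to equal control means added 0.15 to every log2 fold change of GDC-0623 against DMSO at 24 h and 0.01 at 72 h. The amount was -0.11 for 72 h against 24 h in GDC-0623 cells, 0.03 in DMSO cells and -0.14 for the difference between the drug effects.

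Promoter sequences were examined because ER and heat shock chaperone genes are known to carry short response elements. A RefSeq promoter window on GRCm38.p6, from 250 bases before to 50 bases after the annotated start, was matched for 28 of the 35 members, with 33 windows in all. Hspa8, Manf, Hyou1, Hsp90ab1, Atf6, Hsp90aa1 and Hsf1 had no window. The ER stress response element (ERSE) was searched on both strands as CCAAT and CCACG with 9 bases between them, and the related ERSE-II as ATTGG and CCACG with 1 base between them. ERSE was present in the windows of 8 of the 28 members (Calr, Canx, Creld2, Dnajc3, Hsp90b1, Hspa5, Pdia6 and Syvn1), against 0.119% of all 32851 windows. ERSE-II was present in Dnajb11 and Herpud1, against 0.0365% of all windows. The following stretches show ERSE in a gene that did not pass the test under the drug (Hspa5), in the ER chaperone with the largest drug effect (Calr) and in 3 other members. Capitals mark the element on either strand, each stretch is written 5′ to 3′ on the strand of its gene, and all lie before the annotated start.
Hspa5, chr2:34772005-34772063, plus strand: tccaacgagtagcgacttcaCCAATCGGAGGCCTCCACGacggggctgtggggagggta
Calr, chr8:84847055-84847113, minus strand: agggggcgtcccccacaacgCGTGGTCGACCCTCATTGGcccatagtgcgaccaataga
Pdia6, chr12:17266471-17266529, plus strand: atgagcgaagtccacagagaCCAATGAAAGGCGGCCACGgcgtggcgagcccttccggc
Dnajc3, chr14:118937807-118937865, plus strand: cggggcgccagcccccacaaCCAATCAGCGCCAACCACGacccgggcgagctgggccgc
Syvn1, chr19:6046512-6046570, plus strand: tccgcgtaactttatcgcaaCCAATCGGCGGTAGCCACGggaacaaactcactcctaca

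The ERSE-II stretch of Herpud1 and the heat shock element core found before Hspe1 are shown as the corresponding examples, again with the element in capitals.
Herpud1, chr8:94386357-94386407, plus strand: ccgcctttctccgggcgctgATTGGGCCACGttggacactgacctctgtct
Hspe1, chr1:55088053-55088082, plus strand: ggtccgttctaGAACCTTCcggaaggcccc
The heat shock element core, searched as GAANNTTC, was present in 6 members (Bag3, Dnaja1, Hspa1a, Hspd1, Hspe1 and Hsph1), against 7.86% of all windows. In Bag3 and Hsph1 the match lay after the annotated start. Hspd1 and Hspe1, which encode the partner subunits of the mitochondrial chaperonin, are read in opposite directions, and the same bases fell into the windows of both genes and within the annotated span of Hspd1. The element UPRE (TGACGTGG), which contains CGTGG, the reverse complement of the ERSE letters CCACG, was in 0 of the 28 members, against 0.676% of all windows. The C/EBP-ATF element (TTGCATCA) was in Herpud1, against 0.895% of all windows. These matches describe the letters of the windows only.

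The first comparison asked which folding genes differed after 24 h of MEK inhibition. With GDC-0623, 8 of the 33 members rose and 6 fell at 24 h, where 13.3% and 8.23% of all genes did. All genes include those in the background range, whereas every member except Hspa1a had a 12-array mean of at least 7.59. Each share of all genes in this report has this limit, and shares among bright genes only were not computed. The median log2 fold change of the members was 0.08, and that of all genes was -0.03. Risers were the transcription factor gene Xbp1, the sensor gene Eif2ak3, the ERAD genes Sel1l and Syvn1, the ER chaperone gene Calr, the co-chaperone genes Dnajb9 and Dnajc3, and Bag3. Those that fell were the sensor genes Atf6 and Ern1, the ER HSP70-like gene Hyou1, and the heat shock genes Hsph1, Hspd1 and Hspe1. Under the hybridisation control shift all 6 falls lost their call, with adjusted p-values from 0.257 to 0.591, so that 10 members rose and 0 fell by limma (0 lower at an unadjusted p under 0.05).

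The second comparison asked the same after 72 h. At this time 13 of the 33 members rose and 4 fell with GDC-0623, where 13.8% and 12.4% of all genes did. The median was 0.21 for the members and -0.03 for all genes. The members that rose were 39.4% of the 33, while those that fell were 12.1%, near the share of all genes. Those that fell were again Atf6 and Ern1, with Hspd1 and Hspe1. Under the shift by the hybridisation controls 7 rose and 4 fell, and the calls of Creld2, Dnajb1, Dnajb11, Dnajc3, Edem1 and Pdia3 were lost, with adjusted p-values between 0.0505 and 0.0896. The log2 fold changes of these genes were 0.26 to 0.31 under the shift, against 0.25 to 0.3 without it.

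**Figure D1:**
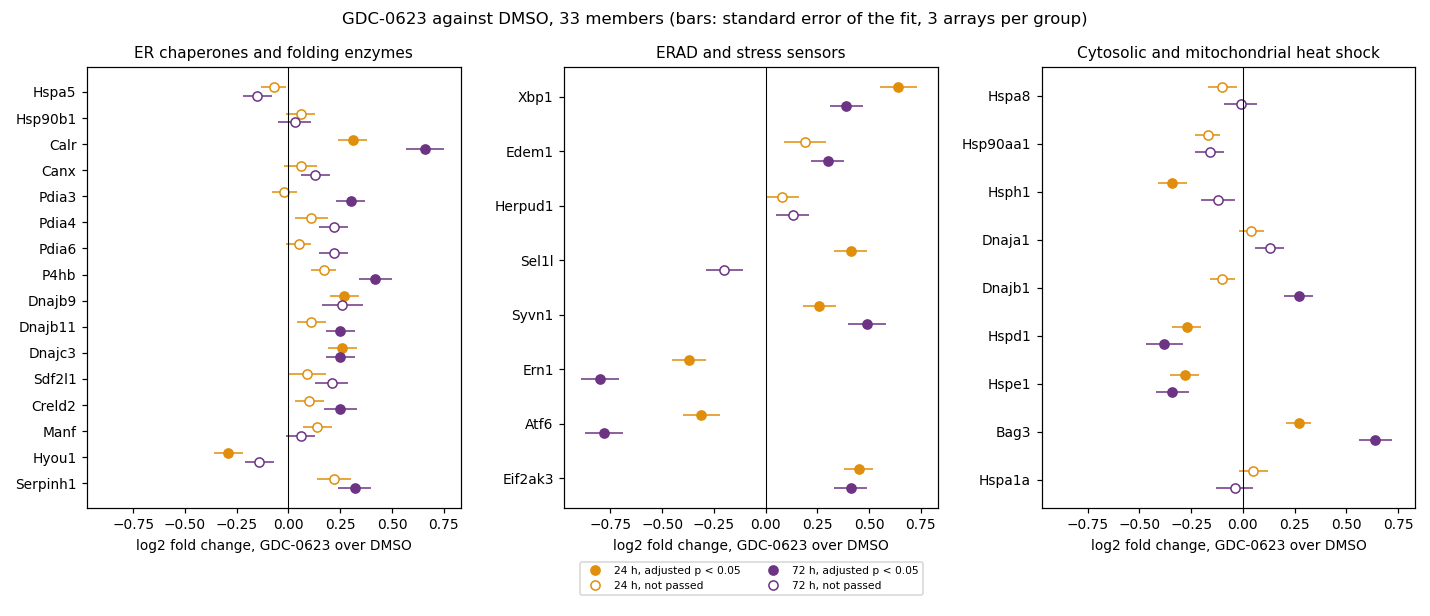
Log2 fold change of GDC-0623 over DMSO (x axis) for the 33 measured members (y axis), in 3 panels by class, at 24 h (orange) and 72 h (purple). Bars are standard errors of the limma fit with 3 arrays per group, and filled points passed an adjusted p under 0.05. Filled points number 14 at 24 h and 17 at 72 h, and Xbp1, Calr and Bag3 lie at the right while Ern1 and Atf6 lie at the left.

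Among the ER stress sensors and their downstream factor, Xbp1 and Eif2ak3 rose and Ern1 and Atf6 fell, at both times. Xbp1 encodes the factor whose mRNA is spliced by IRE1α, and the values here were not split by splice form. Its log2 values at 24 h were 10.97, 10.72 and 10.66 in GDC-0623 cells, against 10.18, 10.17 and 10.08 in DMSO cells. At 72 h Xbp1 had 11.14, 11.06 and 11.02 in GDC-0623 cells, against 10.63, 10.8 and 10.61 in DMSO cells. All GDC-0623 arrays were above all DMSO arrays of the same time. Xbp1 rose by 0.64 ± 0.09 at 24 h (adjusted p = 0.00132, limma) and by 0.39 ± 0.08 at 72 h (adjusted p = 0.00999). All 4 probe sets of Xbp1 were called higher at 24 h, but only 2 of them at 72 h.

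Ern1 encodes IRE1α itself, the kinase and nuclease that splices Xbp1 mRNA. At 24 h Ern1 had log2 values of 7.52, 7.73 and 7.69 in GDC-0623 cells, against 8, 8.11 and 7.95 in DMSO cells. At 72 h the values of Ern1 were 7.5, 7.33 and 7.49 in GDC-0623 cells, against 8.11, 8.27 and 8.34 in DMSO cells. The groups did not overlap at either time. The log2 fold change of Ern1 was -0.37 ± 0.08 at 24 h (adjusted p = 0.0125, limma) and -0.8 ± 0.09 at 72 h (adjusted p = 0.000429). Without 24 h DMSO replicate 2 its 24 h call was lost (adjusted p = 0.0516), as it was under the hybridisation control shift (-0.22, adjusted p = 0.257). The other 4 probe sets of Ern1 passed at neither time, and 3 of them had a mean below 5.

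Atf6, the membrane-bound factor that is cleaved in the Golgi upon ER stress, showed the same direction. At 24 h Atf6 had log2 values of 8.21, 8.25 and 8.04 in GDC-0623 cells, against 8.59, 8.51 and 8.33 in DMSO cells. At 72 h they were 8.41, 8.62 and 8.38 in GDC-0623 cells, against 9.31, 9.25 and 9.18 in DMSO cells. The 72 h DMSO arrays were the highest of all 12, and the groups did not overlap at either time. Atf6 had a log2 fold change of -0.31 ± 0.09 at 24 h (adjusted p = 0.0447, limma) and -0.78 ± 0.09 at 72 h (adjusted p = 0.000462). Its 24 h call was lost under the hybridisation control shift (-0.16, adjusted p = 0.461) and on leaving out any array other than 24 h DMSO replicate 3 (highest adjusted p = 0.149). At 72 h, all 3 probe sets of Atf6 were called lower, with log2 fold changes between -0.85 and -0.78.

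Eif2ak3 encodes PERK, the kinase that slows translation under ER stress. It averaged 7.7 ± 0.045 in GDC-0623 cells and 7.25 ± 0.026 in DMSO cells at 24 h (SD, n = 3 each), and 7.9 ± 0.085 in GDC-0623 cells and 7.49 ± 0.015 in DMSO cells at 72 h. The rise of Eif2ak3 was 0.45 ± 0.07 at 24 h (adjusted p = 0.00148, limma) and 0.41 ± 0.08 at 72 h (adjusted p = 0.00553). It was kept at both times whichever single array was left out. The other 2 probe sets of Eif2ak3 had means of 2.98 and 3.37, in the background range, and with the mean over its probe sets the 72 h call was lost (0.14, adjusted p = 0.156).

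**Figure D2:**
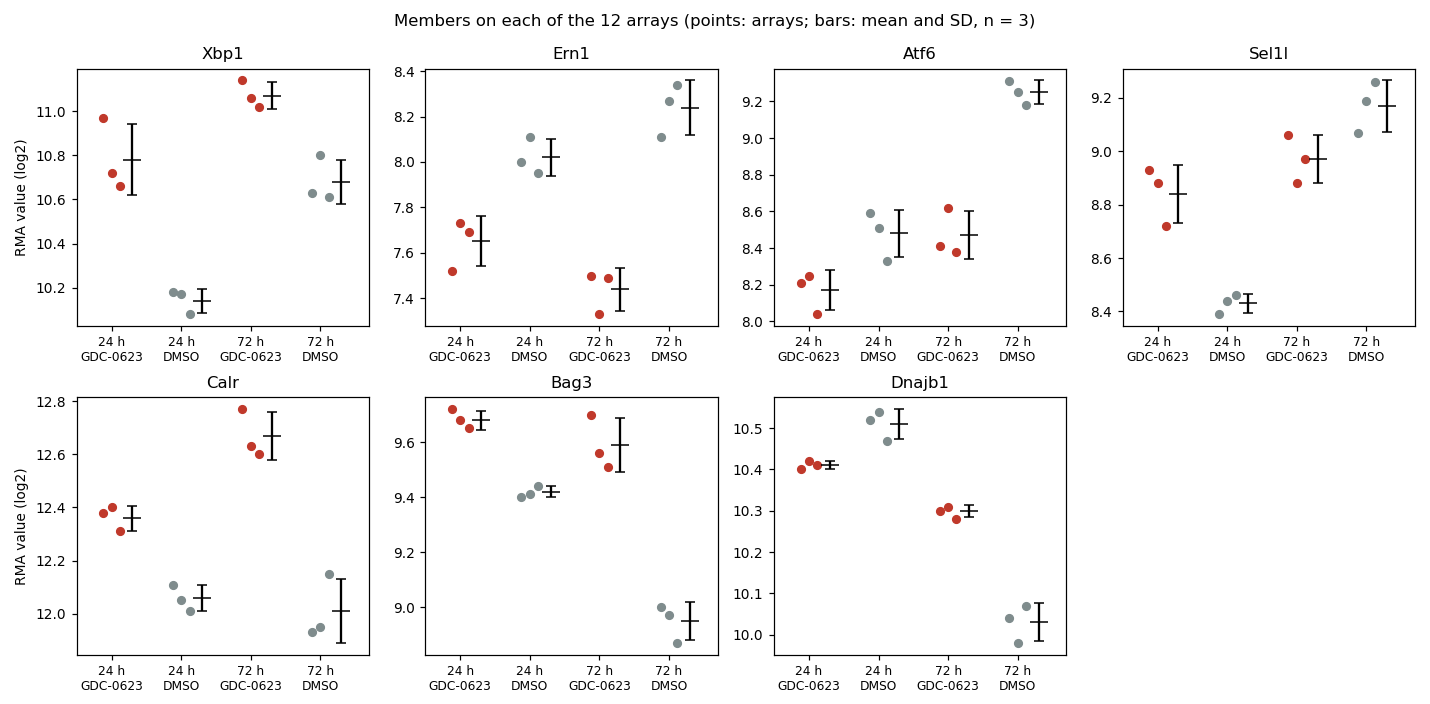
RMA log2 value (y axis, a separate range in each panel) of 7 members on each of the 12 arrays, by group (x axis), with GDC-0623 in red and DMSO in grey; points are arrays and black marks are the mean and SD (n = 3). GDC-0623 lies above DMSO at both times for Xbp1, Calr and Bag3 and below it for Ern1 and Atf6, while Sel1l and Dnajb1 change order between 24 h and 72 h.

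The 4 other ERAD genes followed no single pattern. Syvn1, the ubiquitin ligase HRD1 of the ER membrane, averaged 8.83 ± 0.075 in GDC-0623 cells and 8.56 ± 0.081 in DMSO cells at 24 h (SD, n = 3 each), and 9 ± 0.13 in GDC-0623 cells and 8.51 ± 0.035 in DMSO cells at 72 h. Syvn1 rose by 0.26 ± 0.08 at 24 h (adjusted p = 0.0405, limma) and by 0.49 ± 0.09 at 72 h (adjusted p = 0.00406). On leaving out any array but 24 h GDC-0623 replicate 3 the 24 h call was lost (highest adjusted p = 0.143), whereas the 72 h call was kept whichever single array was left out. Edem1, which helps to select glycoproteins for degradation, had a log2 fold change of 0.19 ± 0.1 at 24 h (adjusted p = 0.226) and rose by 0.3 ± 0.08 at 72 h (adjusted p = 0.0358). That 72 h call was lost on leaving out any array other than GDC-0623 replicate 2 (highest adjusted p = 0.126) and under the hybridisation control shift (adjusted p = 0.0672). Herpud1, an ERAD factor with an ERSE-II, did not pass at either time, with 0.08 ± 0.08 at 24 h and 0.13 ± 0.08 at 72 h.

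Sel1l, the adaptor of Syvn1, was the only ERAD or sensor gene whose drug effect was called different between the times. At 24 h Sel1l had log2 values of 8.93, 8.88 and 8.72 in GDC-0623 cells, against 8.39, 8.44 and 8.46 in DMSO cells. At 72 h they were 9.06, 8.88 and 8.97 in GDC-0623 cells, against 9.07, 9.19 and 9.26 in DMSO cells. GDC-0623 arrays were thus all above DMSO arrays at 24 h and all below them at 72 h, the closest pair being 9.06 and 9.07. Sel1l rose by 0.41 ± 0.08 at 24 h (adjusted p = 0.00538, limma), and its log2 fold change at 72 h was -0.2 ± 0.09 (adjusted p = 0.142). The difference, 72 h effect minus 24 h effect, was -0.62 ± 0.11 (adjusted p = 0.00987). It was kept whichever of the 12 arrays was left out, with a highest adjusted p of 0.0327. A further probe set of Sel1l also passed (-0.56, adjusted p = 0.0361), while 3 others did not, and with the mean over all 5 the call was lost (-0.32, adjusted p = 0.0812).

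ER chaperones and folding enzymes mostly lay above 0 under GDC-0623. At 24 h 3 of the 16 rose and 1 fell, which is 18.8% and 6.25% and near the 13.3% and 8.23% of all genes, and the class median was 0.11. At 72 h 7 rose, or 43.8% against 13.8% of all genes, and the other 9 did not pass, with a class median of 0.24. No ER chaperone was in the background range, whereas all genes include such genes. Relative to all genes the class median was 0.13 at 24 h and 0.27 at 72 h, and under the hybridisation control shift it was 0.13 and 0.26, with 4 members higher at 24 h and 3 at 72 h. The mean of the 16 genes, each centred on its own 12-array mean, was -0.05 to -0.03 on 24 h GDC-0623 arrays, against -0.18 to -0.11 on 24 h DMSO arrays. At 72 h it was 0.18 to 0.23 on GDC-0623 arrays, against -0.04 to 0.01 on DMSO arrays.

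**Figure D3:**
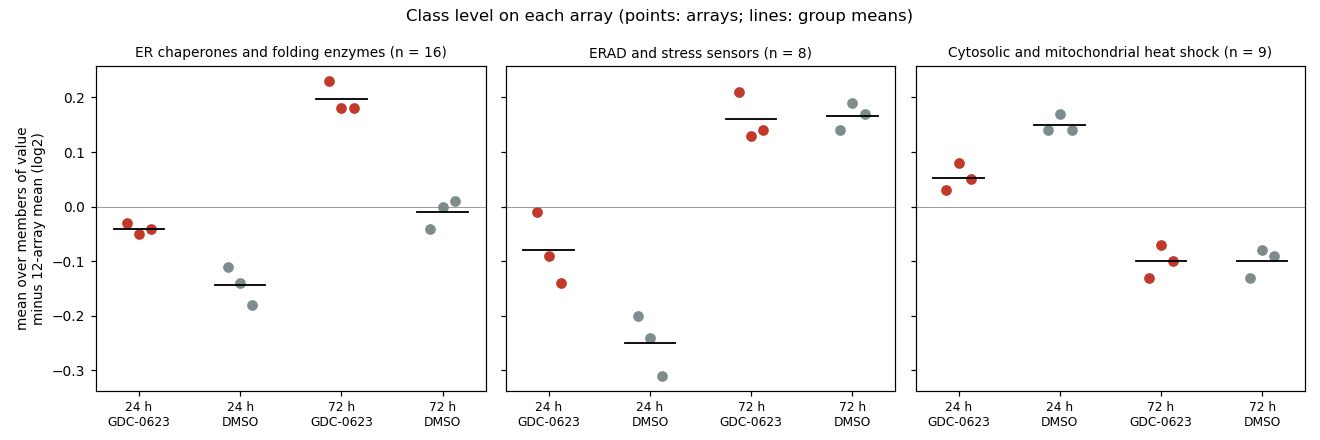
Mean over the members of each class (16, 8 and 9 genes) of the log2 value minus the gene's 12-array mean (y axis) on each array, by group (x axis), with GDC-0623 in red and DMSO in grey; points are arrays and lines are group means. ER chaperone points lie between 0.18 and 0.23 on the 72 h GDC-0623 arrays, above the 9 other arrays, whereas the ERAD and heat shock points of the 72 h groups overlap.

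Calreticulin, a calcium-binding lectin chaperone encoded by Calr, had the largest drug effect among the ER chaperones. At 24 h Calr had log2 values of 12.38, 12.4 and 12.31 in GDC-0623 cells, against 12.11, 12.05 and 12.01 in DMSO cells. At 72 h the values were 12.77, 12.63 and 12.6 in GDC-0623 cells, against 11.93, 11.95 and 12.15 in DMSO cells. No GDC-0623 array overlapped with a DMSO array, and the 72 h DMSO arrays spread over the range of the 24 h DMSO arrays. Calr rose by 0.31 ± 0.07 at 24 h (adjusted p = 0.0132, limma) and by 0.66 ± 0.09 at 72 h (adjusted p = 0.00121), or 1.24-fold and 1.58-fold. The 24 h call was lost without DMSO replicate 3 (adjusted p = 0.0561), and the 72 h call was kept whichever single array was left out. All 3 probe sets of Calr were called higher at both times. Canx, the membrane-bound partner of calreticulin with the same lectin function, had log2 fold changes of 0.06 ± 0.08 at 24 h and 0.13 ± 0.07 at 72 h (adjusted p = 0.658 and 0.28).

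Of 4 disulfide isomerases, 2 rose at 72 h. P4hb, the archetypal protein disulfide isomerase, averaged 13.15 ± 0.07 in GDC-0623 cells and 12.73 ± 0.042 in DMSO cells at 72 h (SD, n = 3 each), a rise of 0.42 ± 0.08 (adjusted p = 0.00487, limma) that was kept whichever single array was left out. Pdia3, the isomerase that works with calreticulin and calnexin, averaged 12.82 ± 0.059 in GDC-0623 cells and 12.52 ± 0.015 in DMSO cells at 72 h. It rose by 0.3 ± 0.07 (adjusted p = 0.0191), and this call was lost without any 1 of the 3 DMSO arrays or GDC-0623 replicate 3 (highest adjusted p = 0.0663). At 24 h the log2 fold changes of P4hb, Pdia3, Pdia4 and Pdia6 were 0.17, -0.02, 0.11 and 0.05. That of P4hb passed only with the trended and robust prior (adjusted p = 0.00393) and in the fit of means over probe sets (adjusted p = 0.0478). P4hb has no other probe set, so its values were the same in that fit, which tested genes instead of probe sets. Pdia4 and Pdia6, further isomerases, each had 0.22 ± 0.07 at 72 h and did not pass (adjusted p = 0.074 and 0.0674). With a trended and robust prior both passed at 72 h (adjusted p = 0.0266 and 0.00991).

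Hspa5 encodes BiP, the abundant HSP70 of the ER lumen and a standard readout of ER stress, and it did not pass under the drug. It averaged 12.78 ± 0.044 in GDC-0623 cells and 12.85 ± 0.015 in DMSO cells at 24 h, and 13.06 ± 0.02 in GDC-0623 cells and 13.21 ± 0.059 in DMSO cells at 72 h (SD, n = 3 each). Its log2 fold changes were -0.07 ± 0.06 at 24 h (adjusted p = 0.508, limma) and -0.15 ± 0.07 at 72 h (adjusted p = 0.197). The 72 h value of Hspa5 passed with the mean over its probe sets (-0.22, adjusted p = 0.0418) and with the trended and robust prior (-0.15, adjusted p = 0.0349), in both cases lower. Hsp90b1, the HSP90 of the ER, had 0.06 ± 0.07 at 24 h and 0.03 ± 0.08 at 72 h. Hyou1, a large HSP70-like protein that exchanges nucleotide on BiP, averaged 9.22 ± 0.057 in GDC-0623 cells and 9.51 ± 0.012 in DMSO cells at 24 h. Hyou1 had -0.29 ± 0.07 (adjusted p = 0.0154), a call that was lost without DMSO replicate 2 (adjusted p = 0.0541) and under the hybridisation control shift (-0.14, adjusted p = 0.53). A second probe set of Hyou1 did not pass at 24 h (-0.11, adjusted p = 0.492). A dim further one, with a mean of 4.93, was called lower at 24 h (-0.52, adjusted p = 0.00808). Its 72 h effect minus its 24 h effect was called higher (0.63, adjusted p = 0.0414).

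The J-domain co-chaperones of BiP had small effects. Dnajb9 rose by 0.27 ± 0.07 at 24 h (adjusted p = 0.0304, limma), and at 72 h it had 0.26 ± 0.1 and did not pass (adjusted p = 0.105). Its 24 h call was lost with the replicate number as a block (adjusted p = 0.0609), with 1 fit over all 12 arrays and with repeated quantile normalisation. It was also lost on leaving out any array other than GDC-0623 replicate 3 (highest adjusted p = 0.107). Dnajc3 rose by 0.26 ± 0.07 at 24 h (adjusted p = 0.0348) and 0.25 ± 0.07 at 72 h (adjusted p = 0.0399), and Dnajb11, whose ERSE-II lies just after its start, rose by 0.25 ± 0.07 at 72 h (adjusted p = 0.0387). The 72 h calls of Dnajc3 and Dnajb11 were lost with the block (adjusted p = 0.074 and 0.0654), and both 72 h calls and the 24 h call of Dnajc3 were lost whichever single array was left out (highest adjusted p = 0.122). Creld2, an ER protein induced by stress, rose by 0.25 ± 0.08 at 72 h (adjusted p = 0.049), which was lost with the block (adjusted p = 0.0755) and whichever single array was left out (highest adjusted p = 0.155).

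Serpinh1, the collagen-specific chaperone HSP47, rose by 0.32 ± 0.08 at 72 h (adjusted p = 0.0181, limma), where it averaged 12.7 ± 0.025 in GDC-0623 cells and 12.38 ± 0.089 in DMSO cells (SD, n = 3 each). Without 72 h DMSO replicate 1 this call was lost (adjusted p = 0.0708). At 24 h Serpinh1 had 0.22 ± 0.08 and did not pass (adjusted p = 0.103). It passed there under the hybridisation control shift (adjusted p = 0.0239), with the trended and robust prior (adjusted p = 0.0101) and with the mean over probe sets (adjusted p = 0.0153). A second bright probe set was called higher at both times (0.26 and 0.52, adjusted p = 0.0195 and 0.00356). The collagen genes Col1a1, Col1a2 and Col3a1 of the mesenchymal marker list rose at 72 h by 0.91, 1.49 and 1.04. Of the 9 genes on that list, 5 rose and 4 did not pass at 72 h. Sdf2l1 and Manf, a BiP-associated factor and a small secreted ER protein, passed at neither time, with log2 fold changes of 0.09 and 0.14 at 24 h and 0.21 and 0.06 at 72 h.

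Cytosolic and mitochondrial heat shock genes were called in both directions. At 24 h 1 of the 9 rose and 3 fell, or 11.1% and 33.3% against 13.3% and 8.23% of all genes, with a median of -0.1. At 72 h 2 rose and 2 fell, or 22.2% each against 13.8% and 12.4% of all genes, with a median of -0.04. Relative to all genes these medians were -0.07 and -0.01. With the hybridisation control shift the 24 h median turned positive, to 0.05, with 1 member higher and 0 lower by limma (0 lower at an unadjusted p under 0.05). Hspa1a, the inducible cytosolic HSP70, was in the background range on every array, with group means between 2.64 and 2.72, so no change of it could be read.

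Bag3, a co-chaperone that directs HSP70 clients to autophagy, was the heat shock gene with the largest drug effect. At 24 h Bag3 had log2 values of 9.72, 9.68 and 9.65 in GDC-0623 cells, against 9.4, 9.41 and 9.44 in DMSO cells. At 72 h they were 9.7, 9.56 and 9.51 in GDC-0623 cells, against 9, 8.97 and 8.87 in DMSO cells. The lowest values were those of the 72 h DMSO arrays, and the groups were separate at both times. Bag3 rose by 0.27 ± 0.06 at 24 h (adjusted p = 0.0197, limma) and by 0.64 ± 0.08 at 72 h (adjusted p = 0.000871), a 1.56-fold difference. The 24 h call was lost on leaving out any array other than GDC-0623 replicate 3 (highest adjusted p = 0.0693), and the 72 h call was kept whichever single array was left out.

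Dnajb1, an HSP40 that activates cytosolic HSP70, changed its order between the times. At 24 h Dnajb1 had log2 values of 10.4, 10.42 and 10.41 in GDC-0623 cells, against 10.52, 10.54 and 10.47 in DMSO cells. At 72 h it had 10.3, 10.31 and 10.28 in GDC-0623 cells, against 10.04, 9.98 and 10.07 in DMSO cells. GDC-0623 arrays lay below DMSO arrays at 24 h and above them at 72 h, without overlap. The log2 fold change of Dnajb1 was -0.1 ± 0.06 at 24 h (adjusted p = 0.346, limma), and it rose by 0.27 ± 0.07 at 72 h (adjusted p = 0.0294). The hybridisation control shift adds 0.15 to 24 h log2 fold changes, which makes that 24 h value positive, so the change of order holds for the RMA values only. The difference, 72 h effect minus 24 h effect, was 0.37 ± 0.08 (adjusted p = 0.0399). It was lost whichever of the 12 arrays was left out (highest adjusted p = 0.111) and under the hybridisation control shift (0.23, adjusted p = 0.447), and the 72 h rise was lost with the replicate block (adjusted p = 0.0567) and whichever single array was left out (highest adjusted p = 0.107). A second probe set of Dnajb1 had a difference of 0.26 and did not pass (adjusted p = 0.237).

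Hspd1 and Hspe1, the HSP60 and HSP10 subunits of the mitochondrial chaperonin that share the promoter stretch shown above, had similar fold changes. Hspd1 averaged 12.92 ± 0.065 in GDC-0623 cells and 13.2 ± 0.0058 in DMSO cells at 24 h, and 12.68 ± 0.16 in GDC-0623 cells and 13.06 ± 0.029 in DMSO cells at 72 h (SD, n = 3 each). For Hspe1 the means were 12.32 ± 0.071 in GDC-0623 cells and 12.59 ± 0.059 in DMSO cells at 24 h, and 12.08 ± 0.11 in GDC-0623 cells and 12.42 ± 0.025 in DMSO cells at 72 h. Both genes fell at both times. Log2 fold changes of Hspd1 were -0.27 ± 0.07 at 24 h and -0.38 ± 0.09 at 72 h (adjusted p = 0.0214 and 0.0194, limma), and those of Hspe1 were -0.28 ± 0.07 and -0.34 ± 0.08 (adjusted p = 0.0267 and 0.0163). The 24 h falls were lost under the hybridisation control shift (adjusted p = 0.591 for Hspd1 and 0.578 for Hspe1), and the 72 h falls were not. Left-out arrays also mattered, since the 72 h call of Hspd1 was lost without any 1 of the 3 DMSO arrays (highest adjusted p = 0.0693) and that of Hspe1 without DMSO replicate 2 or 3 (highest adjusted p = 0.0595). Their 24 h calls were kept only without GDC-0623 replicate 2 for Hspd1 and only without GDC-0623 replicate 3 for Hspe1, with highest adjusted p-values of 0.0681 and 0.0965.

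Hsph1, an HSP110 that exchanges nucleotide on cytosolic HSP70, averaged 11.76 ± 0.095 in GDC-0623 cells and 12.1 ± 0.017 in DMSO cells at 24 h (SD, n = 3 each). It fell at 24 h with a log2 fold change of -0.34 ± 0.07 (adjusted p = 0.0112, limma), which was lost under the hybridisation control shift (-0.19, adjusted p = 0.358), and at 72 h it had -0.12 ± 0.08 (adjusted p = 0.357). The chosen probe sets of 3 abundant chaperones passed at neither time. Hspa8, the constitutive HSP70, had -0.1 at 24 h and -0.01 at 72 h, Hsp90aa1, a cytosolic HSP90, had -0.17 and -0.16, and Dnaja1, an HSP40, had 0.04 and 0.13. A second bright probe set of Hsp90aa1 was called lower at 24 h (-0.39, adjusted p = 0.00569), and with the trended and robust prior the chosen one was lower at both times (adjusted p = 0.0018 and 0.0337). A second probe set of Dnaja1 was called higher at 72 h (0.32, adjusted p = 0.0182).

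The third comparison asked whether the drug effect itself differed between the times, as the 72 h effect minus the 24 h effect. Of the 33 members, 1 was called higher (Dnajb1) and 1 lower (Sel1l), where 1.62% and 1.46% of all genes were. The members' median difference was 0.08 and that of all genes -0.01, and with the hybridisation control shift 0 members were higher and 2 lower, with a median of -0.06 against -0.15 for all genes. Differences that missed the threshold were -0.43 ± 0.12 for Ern1 (adjusted p = 0.101, limma), -0.47 ± 0.13 for Atf6 (adjusted p = 0.0895), 0.35 ± 0.11 for Calr (adjusted p = 0.14), 0.38 ± 0.1 for Bag3 (adjusted p = 0.0702) and 0.32 ± 0.09 for Pdia3 (adjusted p = 0.0803). Atf6 passed with the replicate block (adjusted p = 0.0345), which brought the number of lower members to 2. It also passed with the trended and robust prior (adjusted p = 0.0386) and with the mean over its probe sets (-0.53, adjusted p = 0.0245). A second probe set of Atf6 had a difference of -0.58 (adjusted p = 0.025). The differences of Calr, Bag3 and Pdia3 passed with the trended and robust prior (adjusted p = 0.0283, 0.0226 and 0.00376) and with the mean over probe sets (adjusted p = 0.0432, 0.0293 and 0.0356), and that of Ern1 under the hybridisation control shift (-0.57, adjusted p = 0.0497), so these calls depended on the setting. Bag3 has no other probe set, so its values did not change in the fit of means over probe sets. P4hb had a difference of 0.25 (adjusted p = 0.217), which passed with the trended and robust prior (adjusted p = 0.0357).

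The fourth comparison followed culture time, 72 h against 24 h, within the GDC-0623 arrays and within the DMSO arrays. In GDC-0623 cells 8 of the 33 members were higher at 72 h and 1 was lower, where 5.79% and 3.11% of all genes were. In DMSO cells 12 were higher and 4 were lower, where 8.41% and 5.14% of all genes were. With quantile normalisation repeated, 9 were higher and 0 lower in GDC-0623 cells, and with the hybridisation control shift 4 were higher and 1 lower. Members had a median of 0.13 in GDC-0623 cells and 0 in DMSO cells, and all genes -0.03 and -0.02. These comparisons share arrays with the drug comparisons, all 4 groups serving in both, so the values are given side by side only.

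**Figure D4:**
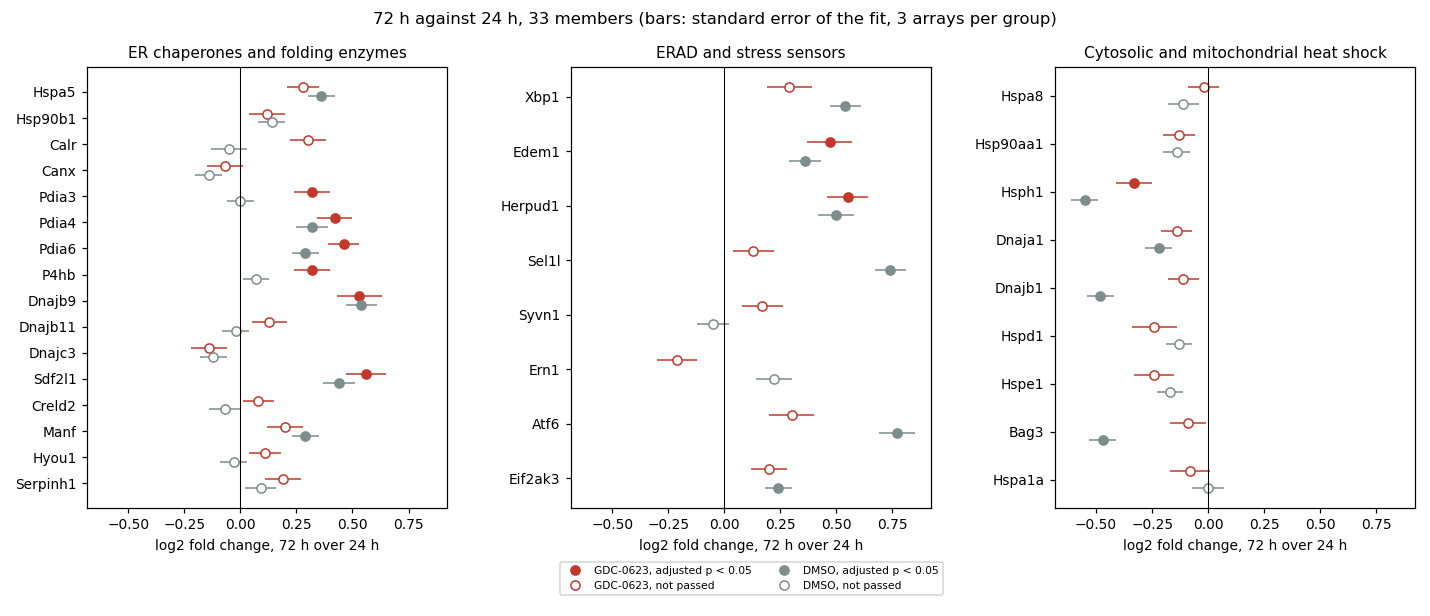
Log2 fold change of 72 h over 24 h (x axis) for the 33 measured members (y axis), in 3 panels by class, in GDC-0623 cells (red) and DMSO cells (grey). Bars are standard errors of the limma fit with 3 arrays per group, and filled points passed an adjusted p under 0.05. Filled points number 9 in GDC-0623 cells and 16 in DMSO cells, and all 5 filled points of the heat shock panel lie left of 0.

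With time, the called rises were of ER genes in both treatments and the called falls of heat shock genes. As exceptions under other settings, Canx was lower with time in DMSO cells with the mean over probe sets (-0.2, adjusted p = 0.046) and with the trended and robust prior (-0.14, adjusted p = 0.00911), and Hyou1 with the mean over probe sets (-0.16, adjusted p = 0.0467). Among ER chaperones, 6 of 16 rose in GDC-0623 cells and 6 of 16 in DMSO cells (37.5% each, against 5.79% and 8.41% of all genes). Dnajb9, Sdf2l1, Pdia4 and Pdia6 rose in both, with log2 fold changes of 0.53, 0.56, 0.42 and 0.46 in GDC-0623 cells and 0.54, 0.44, 0.32 and 0.29 in DMSO cells. Hspa5 rose by 0.36 ± 0.06 in DMSO cells (adjusted p = 0.00829, limma) and had 0.28 ± 0.07 in GDC-0623 cells (adjusted p = 0.0513). Manf rose by 0.29 in DMSO cells and had 0.2 in GDC-0623 cells (adjusted p = 0.164). P4hb and Pdia3 each rose by 0.32 in GDC-0623 cells and had 0.07 and 0 in DMSO cells.

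ERAD and sensor genes had a median change over time of 0.24 in GDC-0623 cells, where 2 of 8 rose, and of 0.43 in DMSO cells, where 6 of 8 rose. These shares, 25% and 75%, stand against 5.79% and 8.41% of all genes, whose medians were -0.03 and -0.02. Herpud1 rose by 0.55 ± 0.09 in GDC-0623 cells and by 0.5 ± 0.08 in DMSO cells (adjusted p = 0.00541 and 0.0062, limma), and Edem1 by 0.47 and 0.36. Atf6 and Sel1l had 0.3 and 0.13 in GDC-0623 cells (adjusted p = 0.0921 and 0.445) and rose by 0.77 and 0.74 in DMSO cells (adjusted p = 0.00123 and 0.000681). Xbp1 had 0.29 in GDC-0623 cells (adjusted p = 0.108) and rose by 0.54 in DMSO cells (adjusted p = 0.00349). Eif2ak3 had 0.2 in GDC-0623 cells and rose by 0.24 in DMSO cells.

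Heat shock genes had a median of -0.13 in GDC-0623 cells, where 1 of 9 fell, and of -0.17 in DMSO cells, where 4 of 9 fell. These shares, 11.1% and 44.4%, stand against 3.11% and 5.14% of all genes, whose medians were -0.03 and -0.02. Hsph1 fell in both, with -0.33 ± 0.08 in GDC-0623 cells (adjusted p = 0.0458, limma) and -0.55 ± 0.06 in DMSO cells (adjusted p = 0.00149). Dnajb1 and Bag3 had -0.11 and -0.09 in GDC-0623 cells (adjusted p = 0.389 and 0.55), and they fell by 0.48 and 0.47 in DMSO cells (adjusted p = 0.00251 and 0.00318). Dnaja1 had -0.14 in GDC-0623 cells and fell by 0.22 in DMSO cells (adjusted p = 0.0438). Only for Sel1l and Dnajb1 was the change over time called different between the treatments, since that test is the same contrast as the difference between drug effects.

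Several time calls depended on single arrays or settings. In GDC-0623 cells, the calls of Hsph1, P4hb and Pdia3 were lost whichever single array was left out, that of Dnajb9 without 24 h GDC-0623 replicate 2 or 3, that of Edem1 without the same arrays or 72 h GDC-0623 replicate 1 or 3, and that of Pdia4 without 24 h GDC-0623 replicate 2, the highest adjusted p among them being 0.173. In DMSO cells, Dnaja1 and Eif2ak3 were lost whichever single array was left out, Manf and Pdia4 without any array but 24 h DMSO replicate 1, Pdia6 without replicate 2 or 3 of either time, and Edem1 without 24 h DMSO replicate 2 or 3 or 72 h DMSO replicate 1, with a highest adjusted p of 0.121. With the replicate number as a block Dnaja1, Eif2ak3 and Pdia6 were lost in DMSO cells (adjusted p = 0.075, 0.058 and 0.0501). Under the hybridisation control shift Edem1, P4hb, Pdia3 and Pdia4 were lost in GDC-0623 cells (adjusted p = 0.0745, 0.231, 0.217 and 0.0698), and Dnaja1, Eif2ak3, Manf and Pdia6 in DMSO cells (adjusted p = 0.436, 0.154, 0.0751 and 0.0627). With the mean over probe sets, Pdia6 was lost in both treatments (adjusted p = 0.15 in GDC-0623 cells and 0.325 in DMSO cells), and Pdia4 and Eif2ak3 were lost in DMSO cells (adjusted p = 0.0661 and 0.26).

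Further genes of the same pathways were read from 7 lists, whose counts stand against 13.3% of all genes higher and 8.23% lower at 24 h, and 13.8% higher and 12.4% lower at 72 h. Of 18 genes of the ERAD machinery, 5 rose and 1 fell at 24 h (27.8% and 5.56%, median 0.12) and 8 rose and 1 fell at 72 h (44.4% and 5.56%, median 0.21). The 1 fall at 24 h was lost under the hybridisation control shift. Os9, a lectin that hands misfolded glycoproteins to Sel1l, rose by 0.47 ± 0.07 at 24 h and 0.65 ± 0.11 at 72 h (adjusted p = 0.00136 and 0.00399, limma). Edem2 rose by 0.52 and 0.53, and Selenos, a selenoprotein of the ERAD complex, by 0.27 and 0.55. Erlec1, another ER lectin, had 0.23 at 24 h (adjusted p = 0.0664) and rose by 0.48 at 72 h (adjusted p = 0.0205).

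Of 20 ER redox and glycoprotein folding genes, 4 rose and 2 fell at each time (20% and 10%, near the shares of all genes), with medians of 0.08 at 24 h and 0.14 at 72 h. Ero1a, the oxidase that recharges protein disulfide isomerase, fell with log2 fold changes of -0.61 ± 0.07 at 24 h and -1.42 ± 0.08 at 72 h (adjusted p = 0.000531 and 1.85e-05, limma). The ER prolyl isomerase genes Fkbp14 and Fkbp7 rose by 0.69 and 0.35 at 24 h and by 1.03 and 0.72 at 72 h, and Qsox1, a sulfhydryl oxidase, by 0.36 and 0.37. Among 14 translocon and signal recognition genes, none was called at 24 h by limma (1 at an unadjusted p under 0.05), and Sec62 and Sec61b rose at 72 h by 0.47 and 0.27. The call of Sec61b was lost with the replicate block (adjusted p = 0.0598) and under the hybridisation control shift (adjusted p = 0.0631).

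Of 16 transducers and effectors of the unfolded protein response, 6 rose and 4 fell at 24 h (37.5% and 25%, median -0.03), and 4 rose and 5 fell at 72 h (25% and 31.2%, median -0.09). At 24 h 6 rose and 2 fell under the hybridisation control shift, with a median of 0.12. Creb3 and Creb3l2, membrane-bound factors related to ATF6, rose by 0.77 and 0.69 at 24 h and by 1.2 and 0.88 at 72 h. Trib3, a pseudokinase induced by ATF4, had log2 fold changes of -0.65 ± 0.08 at 24 h and -1.41 ± 0.15 at 72 h (adjusted p = 0.000902 and 0.000341, limma), and Chac1, a glutathione-degrading enzyme of the same branch, had -0.5 and -1 (adjusted p = 0.00341 and 0.000293).

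The chaperone lists outside the ER had medians below 0 at both times, except that with the hybridisation control shift those of TRiC and of the cytosolic partners were 0.01 and 0.04 at 24 h. Of 8 genes of TRiC, the cytosolic chaperonin, 1 fell at 24 h (median -0.14) and 5 fell at 72 h (median -0.31), and under the hybridisation control shift none was called at either time (0 at 24 h and 6 at 72 h had an unadjusted p under 0.05), with an adjusted p of 0.0557 for Cct7, 0.0528 for Cct6a, 0.062 for Tcp1 and 0.0722 for Cct8 at 72 h. Log2 fold changes at 72 h were -0.36 for Cct7, -0.35 for Cct6a and for Tcp1 and -0.32 for Cct8. Of 23 cytosolic partners of HSP70 and HSP90, 2 rose and 3 fell at 24 h (8.7% and 13%, median -0.11), and 2 rose and 7 fell at 72 h (8.7% and 30.4%, median -0.1). Under the hybridisation control shift 0 of them fell at 24 h by limma (0 at an unadjusted p under 0.05) and 4 fell at 72 h. The risers Hspa2, a further HSP70, and Dnajb4, an HSP40, had 1.2 and 0.87 at 24 h and 0.79 and 0.89 at 72 h. Fkbp4, an HSP90 co-chaperone, had -0.34 at 24 h, which was lost under that shift (adjusted p = 0.369), and fell by 0.52 at 72 h. Hspa4, an HSP110, had -0.23 at 24 h (adjusted p = 0.0503) and fell by 0.47 at 72 h.

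Of 9 further mitochondrial chaperones and proteases, 1 rose and 6 fell at 24 h (median -0.3), and 7 fell at 72 h (median -0.51), beside the falls of Hspd1 and Hspe1. Under the hybridisation control shift 0 fell at 24 h by limma (0 at an unadjusted p under 0.05, median -0.15) and 6 fell at 72 h (median -0.5). Lonp1 and Clpp, mitochondrial protease genes, had -0.27 and -0.32 at 24 h and -0.68 and -0.56 at 72 h. The co-chaperone genes Dnaja3 and Grpel2 had -0.35 and -0.32 at 24 h and -0.62 and -0.52 at 72 h.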

How the data were processed

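The authors deposited RMA values on the log2 scale, a method also named in the submitters' processing notes, from 1-colour Affymetrix mouse arrays hybridised with biotin-labelled RNA. RMA subtracts background, makes the distributions of all arrays alike (quantile normalisation) and combines probes into probe sets, which removes any shift common to most genes. Its version is not given in the sources used here. RMA values carry no detection call, and the number of arrays limits the precision.

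Of 45101 probe sets, 64 controls were left out and 45037 were tested. The array annotation gave 1 symbol for 34945, several for 932 and none for 9160. Groups were compared on their 6 arrays with limma 3.58.1 in R 4.3.3 (lmFit and eBayes, two-sided, Benjamini-Hochberg, adjusted p under 0.05), after a check on simulated data, and the difference between drug effects on all 12 arrays. P-values set the difference of group means against the spread between the 3 samples within each group, moderated over all tested probe sets. Array values are printed for members with a called drug effect of at least 0.5 or a called difference between the drug effects; a gene outside the 35 is named from the ERK check or among the up to 4 largest called effects of its list, and the 3 collagen genes of the marker list were named after their values were seen. Members and lists were chosen with earlier results of these data known.

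Replicate numbers come from the sample titles. Deviations from the group means correlated between same-numbered arrays with 0.12 to 0.56 in the 15 pairs examined, which left out 24 h GDC-0623 against 72 h DMSO. The numbers were therefore taken to pair the samples in the replicate block. The main fits, and the p-values printed without a named setting, left this pairing out. The alternatives were the replicate block, 1 fit over all 12 arrays, repeated quantile normalisation, a filter that kept probe sets reaching 5 on 3 or more arrays, scaling to hybridisation controls, a trended and robust prior, the mean over probe sets and leaving out each array. A pseudocount does not apply to logarithms.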

Additional observations from a re-analysis of the deposited data

Results flagged for a closer look

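The effect of GDC-0623 against DMSO differed between 72 h and 24 h for 2 members, by the limma test of the difference itself. For Sel1l the log2 fold change was -0.2 at 72 h and 0.41 at 24 h, a difference of -0.62 (adjusted p = 0.00987) that was lost with the mean over its 5 probe sets (-0.32, adjusted p = 0.0812). For Dnajb1 it was 0.27 at 72 h and -0.1 at 24 h, a difference of 0.37 (adjusted p = 0.0399) that was lost whichever of the 12 arrays was left out.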

How the results depend on the processing

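No called member was called in the opposite direction under any alternative run. With the replicate block, 13 of 14 calls of GDC-0623 against DMSO were kept at 24 h, 13 of 17 at 72 h, 9 of 9 over time in GDC-0623 cells and 13 of 16 in DMSO cells, and lower differences between the drug effects numbered 2; pairing changed no other call. Under the hybridisation control shift, members lower at 24 h numbered 0, members higher at 72 h 7, members higher with time in GDC-0623 cells 4, and the difference between drug effects had 0 higher and 2 lower. With the mean over probe sets, 2 members were lower with time in GDC-0623 cells and 7 in DMSO cells, and 4 had a higher difference. The trended and robust prior gave 2 lower with time in GDC-0623 cells, 8 lower in DMSO cells, and 5 higher and 2 lower differences. One fit over 12 arrays gave 2 lower with time in GDC-0623 cells and repeated quantile normalisation gave 0. With the filter on dim probe sets, the differences were 3 higher and 3 lower. Leaving out each array gave 3 to 7 higher and 1 to 4 lower at 24 h, 6 to 9 higher and 2 to 4 lower at 72 h, 3 to 6 higher and 0 lower with time in GDC-0623 cells, 7 to 11 higher and 3 lower in DMSO cells, and 0 higher and 1 to 2 lower differences. Calls kept whichever single array was left out were 4 of 14 at 24 h, 8 of 17 at 72 h, 3 of 9 in GDC-0623 cells, 10 of 16 in DMSO cells and 1 of 2 differences; these fits have fewer arrays. The cause was not tested for the other settings. Group SDs of the members ranged from 0.0058 to 0.17 (median 0.06), and Hspa1a, in the background range, is not measurable here.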
